A study of Homo sapiens with 14 samples.

Results

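A step in gene expression was found within labelled passage 58 of a long culture of immortalized human lung fibroblasts, where transcripts of the cell cycle were higher and CDKN2A was lower on the later side. It is described from 4 of the 14 arrays of the study. The earlier side holds the arrays labelled A50 replicate 2 and A58 replicate 1, and the later side those labelled A58 replicate 2 and A67 replicate 1. The pairs were formed by array similarity across the borders of the labels, so the 2 arrays labelled A58 lie on opposite sides. The labels may be displaced by 1 position along the series, and this was not tested. Because every row of the table entered the choice of the sides, all differences between them are given as a description, with no test.

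The cells are WI-38, a diploid fibroblast strain from human lung that stops dividing after a limited number of passages. Both sides are labelled as immortalized with hTERT, which encodes the catalytic part of telomerase, and bear a letter A that the labels do not explain. The cultures were split weekly at a fixed seeding number, and RNA was taken in biological duplicate per label. The 7 labelled groups have 2 arrays each. They are primary cells at passage 19, cells of letter A at passages 39, 50, 58, 67 and 95, and cells of letter B at passage 96, and an array is named by its letter and passage, or as primary. All cells are of 1 strain, and the labels name neither the promoter driving hTERT nor whether a culture is 1 clone. The step is called a growth acceleration after its transcripts, MKI67 among them, since growth was not measured on the arrays.

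The p16 protein made from CDKN2A holds the D-type cyclin kinases CDK4 and CDK6 inactive. Active, these kinases phosphorylate the retinoblastoma protein RB1 and its relatives, which releases E2F factors and lets the genes of DNA synthesis be transcribed. Genes of mitosis are transcribed later in the cycle, through the DREAM and MuvB complexes and FOXM1, at promoters that often carry a CHR element and NF-Y sites. Cultured fibroblasts accumulate p16 with passage, and its silencing or loss is a known event in immortalized strains. MKI67, the Ki-67 antigen, is transcribed in cycling cells.

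The promoters of both gene classes are shown, since their members differed together between the sides. They were taken from RefSeq for GRCh38.p14 as windows of 300 bases, 250 before and 50 after an annotated start, written 5′ to 3′ on the gene's strand. The first pair belongs to genes of the G1/S transition and DNA replication, POLE2 for a DNA polymerase epsilon subunit and CDC7 for the kinase that fires origins. The second pair belongs to genes of mitosis, KIF15 for a spindle kinesin and PLK4 for the kinase of centriole duplication. Capitals mark an E2F motif in the first pair and a CHR motif in the second. Each pair holds the largest differences of its list among genes with a window holding that motif. The motif was thus a condition of being shown. PRIM1 and ORC1 of the first list differed by more than both printed genes (1.72 and 1.64) and CDC45 by more than CDC7 (1.57). These are not printed. The POLE2 window lies at chr14:49688165-49688464 on the minus strand, CDC7 at chr1:91500862-91501161 on the plus strand, KIF15 at chr3:44761544-44761843 on the plus strand, and PLK4 at chr4:127880643-127880942 on the plus strand.
POLE2: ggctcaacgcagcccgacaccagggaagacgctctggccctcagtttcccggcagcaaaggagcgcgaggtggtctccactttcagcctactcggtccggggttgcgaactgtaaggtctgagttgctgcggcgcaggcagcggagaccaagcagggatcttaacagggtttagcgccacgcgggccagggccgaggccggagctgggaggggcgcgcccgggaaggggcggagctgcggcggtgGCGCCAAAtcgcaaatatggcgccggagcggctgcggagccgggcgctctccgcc
CDC7: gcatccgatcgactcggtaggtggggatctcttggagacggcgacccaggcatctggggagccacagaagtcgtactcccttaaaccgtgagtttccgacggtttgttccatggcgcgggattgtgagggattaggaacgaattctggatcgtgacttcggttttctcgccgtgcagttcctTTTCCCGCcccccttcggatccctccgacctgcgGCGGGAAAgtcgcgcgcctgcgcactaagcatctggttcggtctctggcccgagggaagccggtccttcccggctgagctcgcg
KIF15: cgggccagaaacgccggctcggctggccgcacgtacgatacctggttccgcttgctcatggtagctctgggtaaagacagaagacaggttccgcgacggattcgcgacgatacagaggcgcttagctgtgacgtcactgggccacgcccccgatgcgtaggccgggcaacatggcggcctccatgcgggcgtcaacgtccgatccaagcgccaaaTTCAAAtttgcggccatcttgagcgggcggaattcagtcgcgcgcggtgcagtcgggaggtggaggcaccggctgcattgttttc
PLK4: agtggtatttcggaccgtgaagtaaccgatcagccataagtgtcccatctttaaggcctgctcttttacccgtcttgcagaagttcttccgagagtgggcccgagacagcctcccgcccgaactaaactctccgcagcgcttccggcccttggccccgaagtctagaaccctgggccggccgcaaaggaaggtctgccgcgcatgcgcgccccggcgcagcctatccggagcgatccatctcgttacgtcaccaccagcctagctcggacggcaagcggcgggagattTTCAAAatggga

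In these windows the E2F motif of POLE2 begins 5 bases before the start, at position -5, and CDC7 holds 2 E2F motifs, at -68 and -34. KIF15 has its CHR motif at -35, directly after an E2F motif at -43 left in lower case. PLK4 has its CHR motif at 39, downstream of the start. Motifs were searched on both strands as TTTCCCGC, TTTCGCGC, TTTGCCGC or TTTGGCGC for E2F, TTTGAA or TTCGAA for CHR and CCAAT for NF-Y. An E2F and a CHR string cannot share a base, and an NF-Y string can share at most 1 base with either. Of 35114 RefSeq promoter windows, 3.3% held the E2F motif, 16.4% the CHR motif and 34.6% the NF-Y motif. Among 55 windows of 41 matched G1/S and replication genes, 21 (38.2%) held the E2F motif, 9.1% the CHR motif and 49.1% the NF-Y motif. Among 72 windows of 57 matched mitosis genes the order was turned, with 5.6% for E2F, 46 windows (63.9%) for CHR and 69.4% for NF-Y. For lists mostly lower on the later side, 33 windows of matrix genes had 0.0% for E2F, 24.2% for CHR and 30.3% for NF-Y. The 52 windows of contractile and TGF-beta genes had 0.0%, 21.2% and 40.4%. A match is a string of letters, and binding was not measured.

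CDKN2A is shown as well, because its level marks the step. The gene has separate start sites for p16 and for the alternative product p14ARF, and the array has 1 row for the gene, so the transcripts cannot be told apart. The window of the p16 start lies at chr9:21974808-21975107 on the minus strand, with the start codon of p16 in capitals, and holds 26 CpG dinucleotides. DNA methylation was not analysed here.
CDKN2A: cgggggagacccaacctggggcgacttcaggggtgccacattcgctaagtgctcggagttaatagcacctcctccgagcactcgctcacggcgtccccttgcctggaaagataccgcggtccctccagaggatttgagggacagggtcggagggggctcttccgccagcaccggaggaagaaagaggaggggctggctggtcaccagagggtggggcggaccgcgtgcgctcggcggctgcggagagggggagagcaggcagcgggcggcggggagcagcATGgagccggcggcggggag

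The sides were alike within and distinct between. Over 28869 rows, the 2 earlier arrays had a Pearson correlation of 0.991 and differed by at least 1 log2 in 197 rows, and the 2 later arrays had 0.9895 and 221 rows. Across the sides the correlations were 0.9763 to 0.9806, with 813 to 1053 rows at least 1 log2 apart. These correlations run across rows of single arrays, rows are not independent, and they are the values that chose the sides. Neighbouring labels were close elsewhere too. A39 replicate 1 was closest to primary replicate 2 (0.9929), A39 replicate 2 to A50 replicate 1 (0.9917), A67 replicate 2 to A95 replicate 1 (0.9876) and A95 replicate 2 to B96 replicate 1 (0.9857). TERT lay at 10.67 and 10.77 on the earlier and 11.29 and 11.04 on the later arrays, inside the hTERT range, whereas the arrays labelled primary had 7.07 and 11.70, so 1 library labelled primary goes against its label.

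CDKN2A was lower on both later arrays. It had 9.46 and 9.42 (log2 of the array signal) on the earlier and 8.10 and 7.85 on the later arrays, a difference of -1.46, or 2.76-fold lower. The later arrays lay below every array of labels primary, A39 and A50 (8.80 to 9.59), and above A67 replicate 2 (6.33) and A95 replicate 1 (6.54). The level did not stay at its lowest along the labels, with 7.84 on A95 replicate 2 and 7.79 and 8.87 on the B96 arrays.

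MKI67 was higher on both later arrays, with 9.53 and 9.40 on the earlier and 10.82 and 10.62 on the later side, a difference of 1.25 (2.39-fold). A39 replicate 2 (8.79) and A50 replicate 1 (8.84) were lower than the earlier side, but A39 replicate 1 had 10.13, close to primary replicate 2 (10.28). Low MKI67 was thus seen on 4 arrays that follow each other in label order, from A39 replicate 2 to A58 replicate 1.

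ELAPOR2, which encodes a membrane protein related to the autophagy regulator ELAPOR1, had the largest difference among genes with 1 row standing for them. It had 7.72 and 7.56 on the earlier and 11.22 and 11.14 on the later arrays, 3.54 log2 or 11.6-fold higher. A67 replicate 2 (10.55) and A95 replicate 1 (10.44) were also high, and every other array lay between 5.31 and 6.72, A95 replicate 2 (6.47) included. The earlier arrays therefore already stood above all arrays outside the run of 4 high ones.

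**Figure D1:**
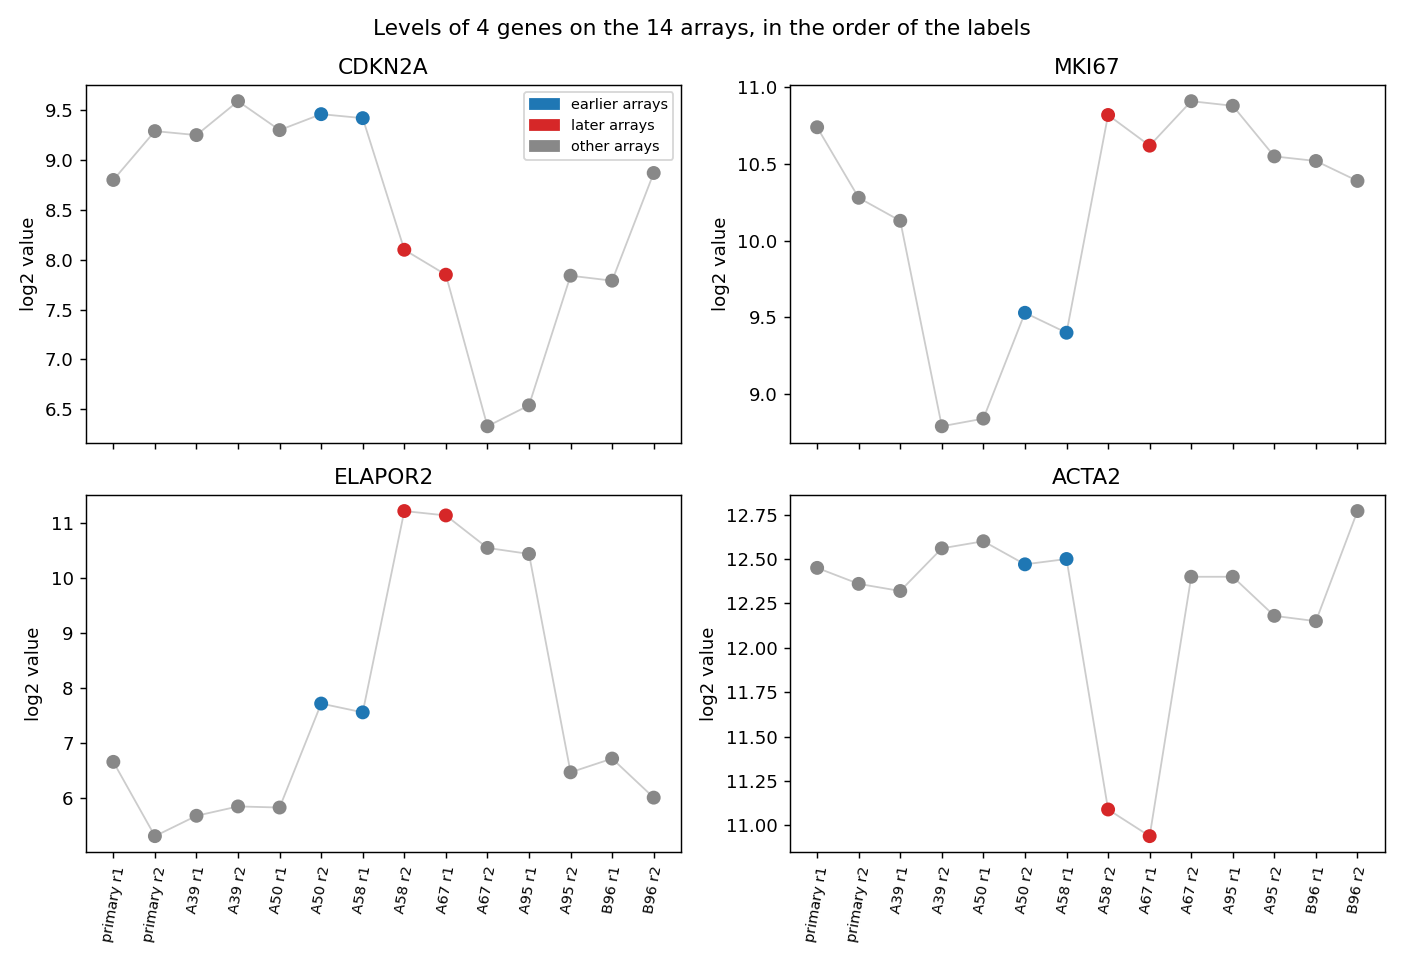
Levels of CDKN2A, MKI67, ELAPOR2 and the smooth muscle actin gene ACTA2 (vertical axes, log2 of the array signal) on the 14 arrays in label order (horizontal axis), 1 point per array, with earlier arrays in blue, later arrays in red and others in grey. CDKN2A goes from 9.42 on the second earlier array to 8.10 on the first later one, while ACTA2 is low on the 2 later arrays alone (11.09 and 10.94).

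In all, 305 rows (1.06%) were at least 1 log2 higher on the later side without overlap and 362 rows (1.25%) at least 1 log2 lower. By gene, with the brightest row standing for each of 18377 genes, these were 230 (1.25%) and 222 (1.21%). Without a size limit, 5128 genes (27.9%) were higher on both later arrays and 5164 (28.1%) lower, and the median gene differed by 0.0. These shares are the background for the gene groups below, and because the sides were chosen on all rows, nothing about chance is read from them.

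The p16 and RB pathway did not move as a block. Of 24 measured members, 9 were higher without overlap, 9 lower and 6 overlapped, with a median of 0.08. Beside CDKN2A, the lower members with the largest differences were the kinase gene CDK6 (10.77 and 10.63, then 9.99 and 9.87, a difference of -0.77), the p21 gene CDKN1A (11.52 and 11.48, then 10.90 and 10.66, -0.72) and the cyclin gene CCND3 (10.12 and 10.09, then 9.55 and 9.34, -0.66). CDK4 was higher by 0.61 and the p27 gene CDKN1B by 0.44. CDKN2B, the p15 gene beside CDKN2A on chromosome 9, overlapped between the sides (9.41 and 9.57, then 9.42 and 9.70), and its small difference of 0.07 turned to -0.01 without A50 replicate 2 and -0.07 without A67 replicate 1. MTAP, on the other side of CDKN2A, was 0.29 higher.

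The repressors of the E2F axis that are themselves E2F targets were the highest of the list. RBL1, the p107 gene, had 8.64 and 8.38 on the earlier and 9.80 and 9.74 on the later arrays, 1.26 higher. E2F7 had 9.84 and 9.82, then 10.99 and 10.89, 1.11 higher, and E2F8 was 0.80 higher (6.38 and 6.33, then 7.07 and 7.24). RB1 itself differed by 0.17 without overlap, and E2F1 by 0.22 with overlap.

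Genes of the G1/S transition and DNA replication were higher almost throughout. On both later arrays 45 of 46 measured members lay above both earlier ones (97.8%, against 27.9% of all genes), 28 of them by at least 1 log2, and the median was 1.11. The primase subunit PRIM1 had 8.63 and 8.33, then 10.11 and 10.30, 3.31-fold higher. The origin recognition subunit ORC1 had 7.47 and 7.12, then 8.87 and 8.99 (1.64 higher), the helicase loader partner CDC45 had 8.09 and 7.85, then 9.56 and 9.52 (1.57), and the helicase subunit MCM7 had 9.76 and 9.61, then 11.20 and 11.21 (1.52). POLE2 and CDC7, whose promoters are printed above, were higher by 1.60 (7.18 and 6.89, then 8.70 and 8.57) and 1.52 (7.86 and 7.66, then 9.23 and 9.34). The exception was CCNE1, the cyclin E1 gene, which overlapped (-0.09), while CCNE2 was 1.10 higher.

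Mitosis genes did the same. Of 66 measured members 65 were higher without overlap (98.5%), 40 by at least 1 log2, with a median of 1.05. KIF15 had 7.19 and 6.92, then 8.64 and 8.57 (1.55 higher), PLK4 had 8.30 and 8.16, then 9.72 and 9.69 (1.48), the kinetochore subunit SPC25 had 8.36 and 8.35, then 9.81 and 9.74 (1.42), and the condensin subunit NCAPH had 8.56 and 8.33, then 9.96 and 9.76 (1.42). FOXM1, which drives G2 and M transcription, was 1.16 higher, and the mitotic kinase CDK1 and its cyclin CCNB1 were 0.75 and 0.78 higher. SPC24, the partner of SPC25, overlapped (-0.10).

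Genes that repair and copy chromatin moved with them. Of 24 measured members, 22 (91.7%) were higher without overlap and 1 lower, with a median of 0.96. The nuclease EXO1 had 8.13 and 8.08, then 9.77 and 9.65, 1.60 higher, and the chromatin remodeller HELLS had 9.0 and 8.97, then 10.48 and 10.35, 1.43 higher. DNMT1, the maintenance DNA methyltransferase, was 0.94 higher and its partner UHRF1 1.05. The checkpoint kinase ATM was slightly lower (-0.13), and CHEK2 overlapped. Clustered histone genes, whose messages are made in S phase, were higher on both later arrays in 45 of 55 rows, 29 by at least 1 log2, and lower in 5, H2BC12 by the most (-1.38), with a median of 1.14. H2BC14 had 9.93 and 9.81, then 11.69 and 11.48. Histone copies are nearly identical in sequence, so the value of a single copy is uncertain.

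Ribosome biogenesis genes were higher by a smaller amount. All 20 measured members were positive, 19 without overlap (95.0%), with a median of 0.57 and none at 1 log2. The rRNA methyltransferase FBL had 10.25 and 10.27, then 11.09 and 11.19, and the pseudouridine synthase DKC1 had 9.92 and 9.74, then 10.67 and 10.75, both 0.88 higher. Early response genes of growth factor signalling were mixed, 13 of 23 higher and 6 lower, with a median of 0.22. FOS was the highest of them, 0.93 above the earlier side (9.99 and 9.77, then 11.05 and 10.57), and the ERK phosphatase DUSP6 was 0.72 higher.

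**Figure D2:**
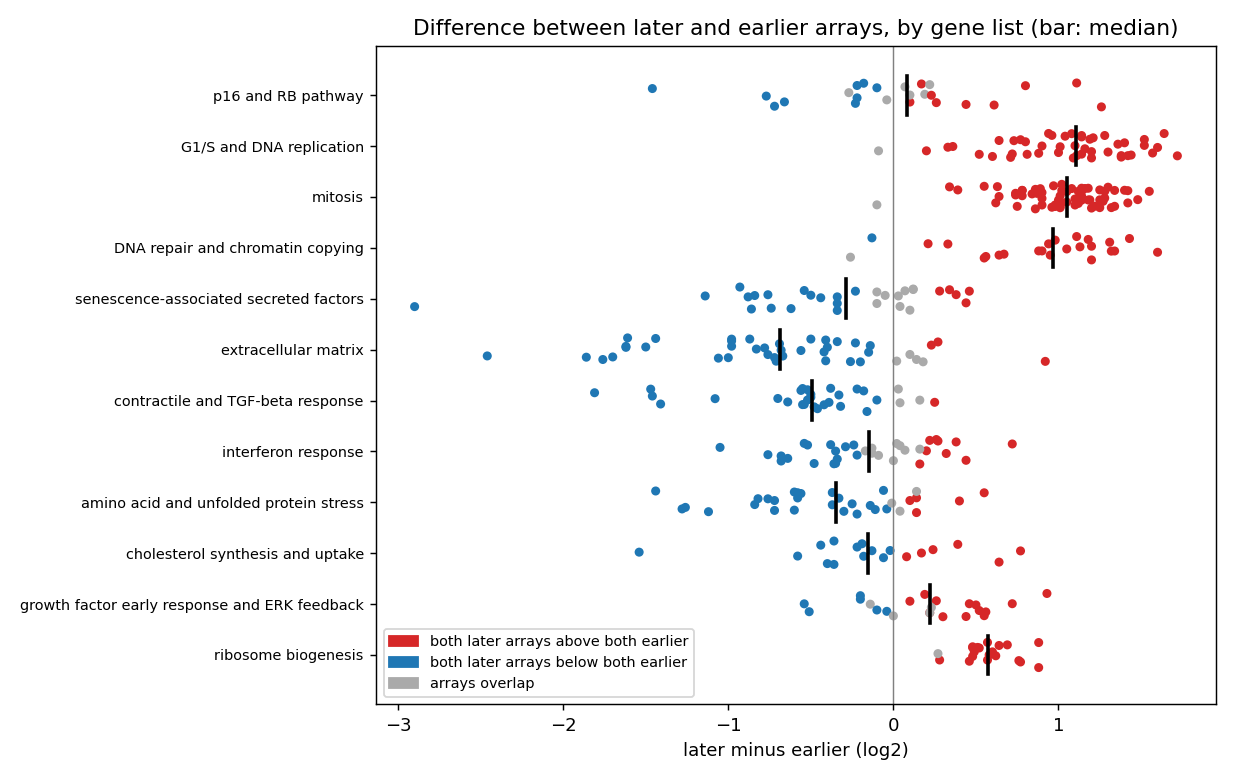
Difference between later and earlier arrays (horizontal axis, log2) for every measured member of 12 gene lists (rows), 1 point per gene, red where both later arrays lie above both earlier, blue where both lie below, grey where they overlap, with a bar at the list's median. Medians run from -0.68 for extracellular matrix to 1.11 for G1/S and DNA replication.

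Factors secreted by senescent cells had a median of -0.28 (-0.162 without A58 replicate 1), with 16 of 30 lower (53.3%, against 28.1% of all genes) and 5 higher. The stromelysin MMP3 differed most, with 9.36 and 9.10, then 6.39 and 6.26, 7.49-fold lower. The insulin-like growth factor binding protein IGFBP3 had 12.55 and 12.49, then 11.41 and 11.35 (-1.14). The cytokine IL6 differed by -0.50 and the chemokine CXCL8 by -0.23, while IL1A was 0.44 higher. Genes of the amino acid and unfolded protein responses were lower in 24 of 32 (75.0%), with a median of -0.35. NUPR1 had 8.88 and 8.85, then 7.41 and 7.44 (-1.44), the mTOR inhibitor DDIT4 had 7.52 and 7.71, then 6.27 and 6.40 (-1.28), and the asparagine synthetase ASNS had 10.04 and 10.00, then 9.20 and 9.17 (-0.84). ATF4, the transcription factor of this response, was 0.40 higher. In the interferon response 16 of 34 genes were lower and 9 higher, with a median of -0.15 (-0.225 without A58 replicate 1). Of 18 cholesterol genes 12 were lower and 6 higher, by up to 0.77, with a median of -0.16. Only DHCR7, the last enzyme of the pathway, was at least 1 log2 lower, with 9.02 and 9.11, then 7.54 and 7.52 (-1.54).

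Extracellular matrix genes were mostly lower. Of 42 measured members, 35 (83.3%) were lower without overlap, 10 by at least 1 log2, and 3 were higher, with a median of -0.68. Tropoelastin, ELN, had 11.64 and 11.60, then 9.05 and 9.26, 5.52-fold lower. The fibrillar collagen COL11A1 had 9.78 and 9.65, then 7.99 and 7.72 (-1.86), periostin, POSTN, had 10.49 and 10.43, then 8.95 and 8.45 (-1.76), the proteoglycan LUM had 11.91 and 11.87, then 10.33 and 10.06 (-1.70), and COL3A1 had 11.72 and 11.69, then 10.00 and 10.18 (-1.62). COL1A1 differed by less, -0.56. Of 11 fibroblast markers, 5 of which are on this list too, 8 were lower as well. HAS2, the hyaluronan synthase, was 0.92 higher (9.35 and 9.42, then 10.31 and 10.31).

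These matrix genes did not share 1 course over the other arrays. ELN was lower on A39 replicate 2 and A50 replicate 1 (8.79 and 8.79) than on the later side and had 10.71 and 10.77 on A67 replicate 2 and A95 replicate 1. LUM and COL3A1 were high on all earlier labels of letter A (10.91 to 12.25) and low on A67 replicate 2 and A95 replicate 1 (9.91 to 10.64).

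Contractile genes and targets of TGF-beta were lower in 26 of 30 (86.7%), with a median of -0.48. SYNPO2, an actin-bundling protein gene, had 8.72 and 8.79, then 7.09 and 6.80 (-1.81), and TGFBI, a matrix protein induced by TGF-beta, had 12.54 and 12.52, then 11.23 and 10.92 (-1.46). The ligand gene TGFB2 had 7.88 and 8.05, then 6.45 and 6.66 (-1.41), and the actin-binding transgelin, TAGLN, had 12.35 and 12.24, then 11.26 and 11.18 (-1.08).

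ACTA2, the smooth muscle actin gene of myofibroblasts, was low nowhere but on the later arrays. It had 12.47 and 12.50 on the earlier and 11.09 and 10.94 on the later side, 2.77-fold lower, while the other 10 arrays lay between 12.15 and 12.77, A67 replicate 2 and A95 replicate 1 at 12.40 each. A further 4 genes at least 1 log2 lower, chosen after their values were seen, were on the later side of the midpoint between the side means on none of the other 6 arrays of letter A. MYOCD, a coactivator of smooth muscle genes, had 8.79 and 8.43, then 7.33 and 6.84, and 7.84 or more elsewhere. ANKRD1, a nuclear cofactor of muscle and fibroblasts, had 9.24 and 9.20, then 7.59 and 7.87, and 8.32 or more elsewhere. The cation channel TRPC6 differed by -1.64 and the receptor LRP1B by -1.23.

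**Figure D3:**
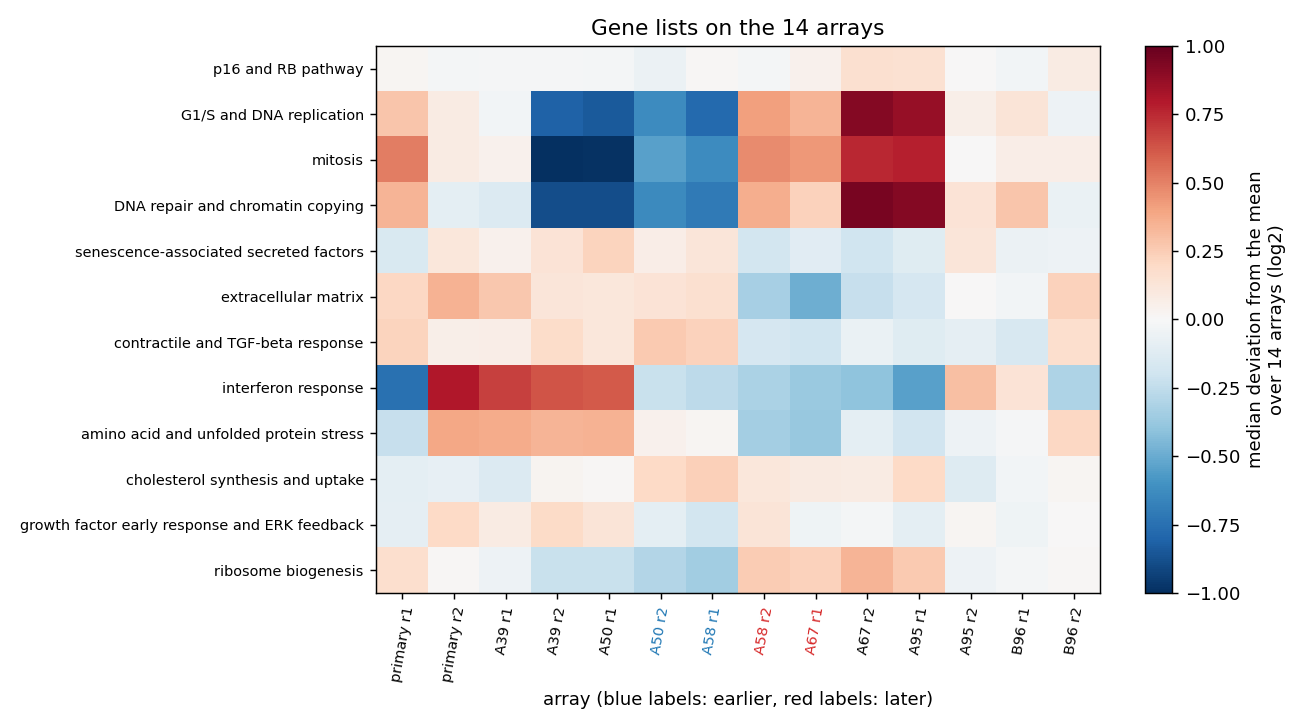
Median deviation of each gene list's members from their own mean over the 14 arrays (colour, log2) for 12 lists (rows) on the 14 arrays in label order (columns), with earlier arrays labelled in blue and later ones in red. The mitosis list is at -0.54 and -0.63 on the earlier arrays, 0.47 and 0.43 on the later ones, and -1.0 and -0.99 on A39 replicate 2 and A50 replicate 1.

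The list levels place the step within the series. The mitosis list, as the median deviation of its members from their own means, went from -0.54 and -0.63 on the earlier to 0.47 and 0.43 on the later arrays. It was at 0.04 on A39 replicate 1, -1.0 on A39 replicate 2 and -0.99 on A50 replicate 1, and at 0.75 and 0.78 on A67 replicate 2 and A95 replicate 1, then 0.00 on A95 replicate 2. The G1/S list followed the same order, from -0.63 and -0.78 to 0.41 and 0.34, with 0.92 and 0.87 on A67 replicate 2 and A95 replicate 1. The later arrays were thus not the highest of the series. The interferon list had its larger difference elsewhere, at 0.61 to 0.80 on primary replicate 2, both A39 arrays and A50 replicate 1 and at -0.22 and -0.26 on the earlier side.

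Beyond the lists, the largest differences belonged to genes of many roles. The glycosyltransferase GCNT2 had 6.46 and 6.59, then 9.22 and 9.13 (6.28-fold higher), the glutamate receptor auxiliary subunit CNIH3 had 7.25 and 7.37, then 9.87 and 9.90 (5.96-fold), and CRYBG1 had 6.88 and 6.87, then 9.13 and 9.11 (4.74-fold). The GABA receptor subunit GABRB1 and the chemerin receptor CMKLR1 were 1.82 and 1.76 higher. Of the 15 largest positive differences, 8 belonged to the DNA replication list's PRIM1, to the replication factor DTL, to CDCA7L and to 5 histone genes.

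On the lower side the mannosidase of the Golgi, MAN1A1, had 10.0 and 9.90, then 6.74 and 6.59, 9.75-fold lower. The ectoenzyme gene BST1 had 9.34 and 9.34, then 6.47 and 6.52, 7.19-fold lower. MAN1A1 and BST1 shared the run of ELAPOR2 in the opposite direction, low on A67 replicate 2 (6.14 and 6.13) and A95 replicate 1 (5.92 and 6.23) too, and back at 9.20 and 8.79 on A95 replicate 2. The alcohol dehydrogenases ADH1C, ADH1B and ADH1A, whose sequences are alike enough to share probes, differed by -2.66, -2.50 and -1.06. The globins HBD (11.0 and 11.01, then 8.72 and 7.97) and HBB (8.59 and 8.61, then 6.75 and 6.60) were lower as well and are also near-identical in sequence.

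Some differences came from high values on the earlier arrays. WNT2, a ligand of lung mesenchyme, had 9.07 and 9.04 on the earlier and 6.39 and 6.32 on the later arrays, and 5.41 to 6.25 on the other 10. The cytokine gene TNFSF15 had 8.29 and 8.30, then 5.80 and 5.73, and 5.19 to 5.79 elsewhere, and the complement gene C7 had 9.75 and 9.83, then 7.58 and 7.28, and 4.80 to 6.84 elsewhere. Sorting the other 6 arrays of letter A by the midpoint between the side means, which was done after the values were seen and left out the primary and B96 arrays, put 31 of the 222 lower genes in this class. The flippase ATP8B4, the prothrombinase FGL2 and the protease PAPPA were among them. Among the 230 higher genes 5 were low on the earlier arrays alone by this sorting, such as the semaphorin receptor NRP1 (7.74 and 7.75, then 8.92 and 8.84, and 9.17 or more elsewhere).

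By the same sorting, 39 higher and 56 lower genes switched, with the 3 arrays of earlier labels on the earlier side of the midpoint and the 3 of later labels on the later side. A further 89 higher and 21 lower genes had A39 replicate 1 on the later side of it too, and 97 and 109 had other courses. The switching genes included E2F7, FOXM1, GCNT2 and CMKLR1 among the higher and CDKN2A, TGFBI, LBH, CYBA and several SNORD116 copies among the lower. The class with A39 replicate 1 held MKI67, RBL1, PRIM1, ORC1 and H2BC14.

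**Figure D4:**
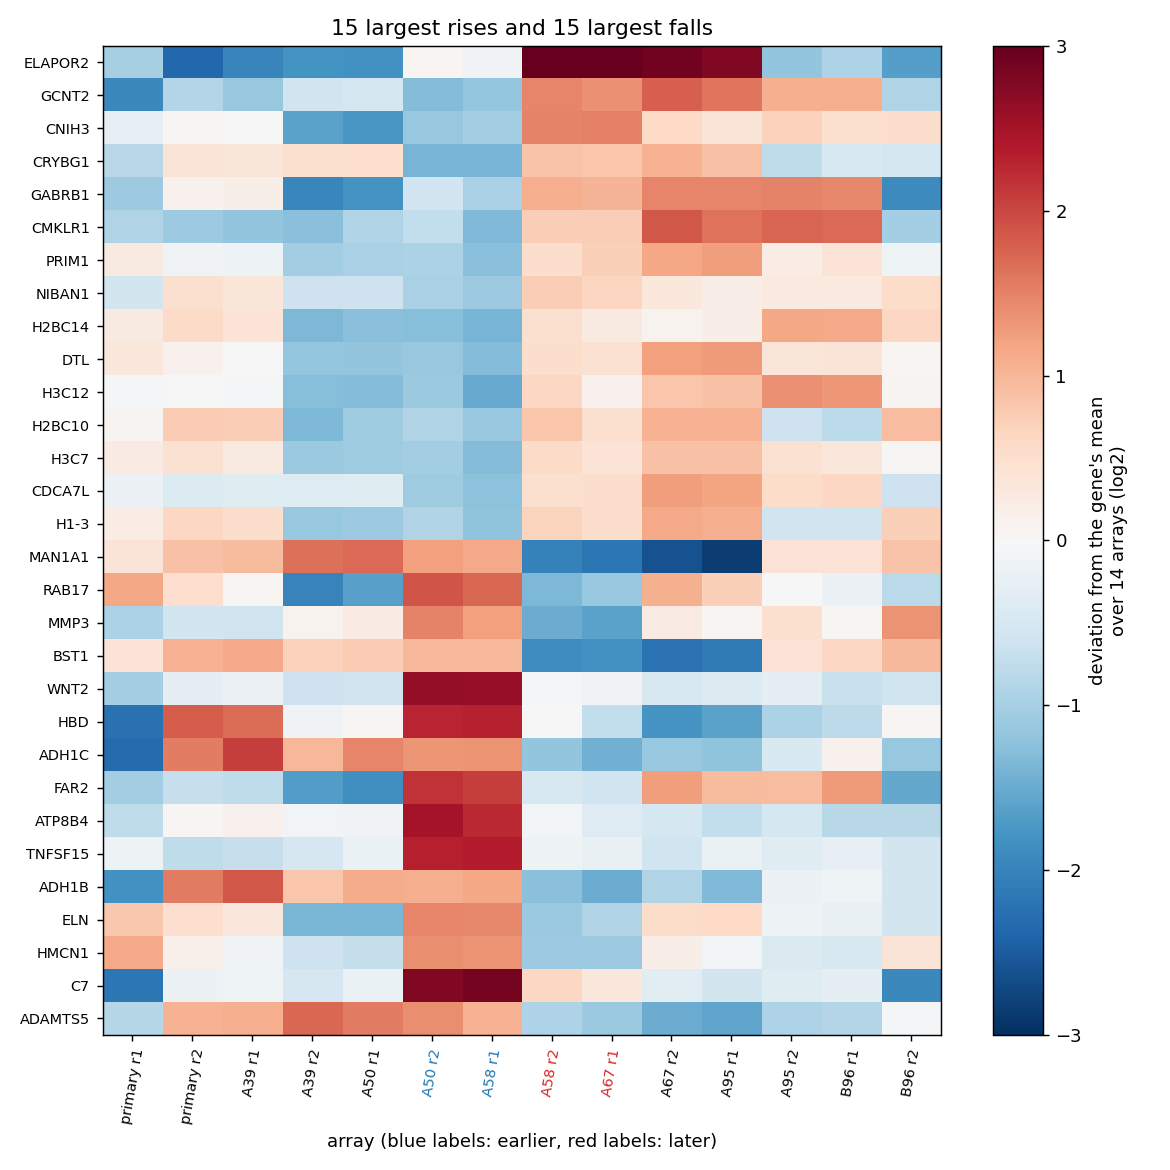
Deviation of the 15 genes with the largest positive and the 15 with the largest negative difference (rows) from their own mean over the 14 arrays (colour, log2), with arrays in label order (columns), earlier arrays labelled in blue and later ones in red. WNT2, ATP8B4, TNFSF15 and C7 stand out on the 2 earlier arrays, and ELAPOR2, MAN1A1 and BST1 over the 4 arrays from A58 replicate 2 to A95 replicate 1.

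SNORD116, a cluster of small nucleolar RNAs on chromosome 15 in the imprinted Prader-Willi region, was lower across its copies. Of 20 rows, 18 were lower without overlap, 10 by at least 1 log2, and the median was -0.98, with a range from -1.74 to -0.08. SNORD116-15 had 9.59 and 9.77, then 7.90 and 7.98. The copies resemble each other in sequence, so they are not separate measurements.

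Other arrays of letter A allow a test that does not use the 4 arrays of the step. A39 replicates 1 and 2 and A50 replicate 1 were compared with A67 replicate 2 and A95 replicates 1 and 2, sides set by labelled passage, with limma and adjustment over all rows. Changes before or after the step enter these differences too. For CDKN2A, A67 replicate 1 of the step had 7.85, and A67 replicate 2 had 6.33. The comparison found 494 rows past an adjusted p of 0.05, 185 higher (0.641%) and 309 lower (1.07%) in late labels. Among them were 37 of the 305 rows higher in the step (12.1% of these, and 20.0% of the 185) and 75 of the 362 lower rows (20.7% of these, and 24.3% of the 309). In the opposite direction 0 higher and 2 lower rows of the step passed. With the spread of all 14 arrays in place of that of these 6, 0 rows passed by limma (3804 at an unadjusted p under 0.05), which ends each call of this comparison, CDKN2A included. That spread treats the 2 arrays labelled A58, on opposite sides of the step and 941 rows at least 1 log2 apart, as duplicates. It does the same with the 2 labelled primary and the 2 labelled B96. B96 replicate 1 was closest to A95 replicate 2 (0.9857) and B96 replicate 2 to A39 replicate 1 (0.979). The differences within these pairs, the step's own included, thus enter the spread, so this fit cannot decide whether the rows differed. How much each pair adds to the spread was not tested. With the replicate number as a block 153 rows passed, 7 of them among the step's higher and 39 among its lower rows. Of the 305 higher rows 291 were positive here, with a median of 1.18, whereas of the 362 lower rows 94 were positive, with a median of -0.61.

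The limits of this test lie in its arrays and their labels. A39 replicate 1 was closest to primary replicate 2 (0.9929) and A95 replicate 2 to B96 replicate 1 (0.9857). If the labels are displaced by 1 position, a side may hold an array of another label or letter, and this was not tested. A39 replicate 2 and A50 replicate 1, and A67 replicate 2 and A95 replicate 1, were each other's close neighbours, so p-values may be too small, and leaving out 1 array gave 25 (without A39 replicate 2) to 2197 rows (without A95 replicate 2). Of the step's higher rows 1 then passed without A39 replicate 2 or A50 replicate 1, 2 without A67 replicate 2 or A95 replicate 1, 101 without A39 replicate 1 and 145 without A95 replicate 2, and of its lower rows 9, 13, 36, 24, 71 and 143 in the same order. Lower rows that passed in the opposite direction then numbered 8 without A39 replicate 1, 11 without A95 replicate 2 and 1 when each of the other 4 arrays was left out alone, and 1 higher row did so without A95 replicate 2.

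CDKN2A passed this test, with 9.38 ± 0.18 (SD, n = 3) in early and 6.90 ± 0.82 (SD, n = 3) in late labels, a difference of -2.48 ± 0.38 (SE, limma adjusted p = 0.031), lower on 3 of 3 late arrays. Its adjusted p ranged from 0.0011 to 0.17 when 1 array was left out, and it was past the threshold in 1 of 6 such fits. MKI67 differed by 1.53 ± 0.36 (limma adjusted p = 0.097) and ELAPOR2 by 3.37 ± 1.02 (limma adjusted p = 0.18), neither past the threshold.

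Of the p16 and RB list, E2F7 (1.48 ± 0.23, limma adjusted p = 0.033) and E2F8 (1.41 ± 0.21, limma adjusted p = 0.028) also rose. In the G1/S list 5 of 46 rose and none fell, namely GINS2, POLE, CDC7, CDC6 and POLA1, and the list's median was 1.12 beside 0.0 for all genes. In mitosis 2 of 66 rose, FOXM1 and KIF23, with a median of 1.16, and among repair genes 5 of 24, RAD54L, BARD1, BRIP1, MSH6 and CLSPN, with a median of 1.33. At an unadjusted p under 0.05, 38 of the 46, 54 of the 66 and 19 of the 24 passed, against 3042 of 18377 genes. Of all genes 0.735% rose and 1.34% fell. Without A39 replicate 2, or without A50 replicate 1, the whole table had 4 higher rows at an adjusted p under 0.05 by limma. At most 4 of the genes named here as risen can thus have passed in either fit. Lower rows numbered 21 and 30 in these fits.

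The groups lower in the step differed in how many members passed. For comparison, 1.34% of all genes fell, and 3042 of 18377 had an unadjusted p under 0.05 by limma. Of the 42 matrix genes 7 fell, LUM, COL3A1, MFAP4, COL5A2, COL6A3, COL8A1 and COL12A1, with a median of -0.36 and 19 of 42 at an unadjusted p under 0.05. ELN (1.14 ± 0.48, limma adjusted p = 0.35), POSTN (0.02 ± 1.12, adjusted p = 0.99) and COL11A1 (0.45 ± 0.94, adjusted p = 0.90) did not pass and had no negative value here. None of the 30 contractile and TGF-beta genes passed, with 11 of 30 at an unadjusted p under 0.05 and a median of -0.19, and ACTA2 differed by -0.17 ± 0.15 (adjusted p = 0.70). Of the 20 ribosome biogenesis genes none passed, with 8 at an unadjusted p under 0.05 and a median of 0.35. Of the stress response genes SESN2, DDIT4 and ASNS fell (3 of 32, with 17 at an unadjusted p under 0.05), of secreted factors HGF and STC1 (2 of 30, with 10 at an unadjusted p under 0.05), and of interferon genes 7 of 34 (19 at an unadjusted p under 0.05), among them IFITM1 (-3.57 ± 0.59, limma adjusted p = 0.037) and IFIT1 (-2.70 ± 0.36, limma adjusted p = 0.019). STC1, a secreted glycoprotein gene, was 0.38 higher in the step.

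Only 24 of the 494 rows passed in all 6 fits with 1 array left out. They included CMKLR1, at 5.72, 5.65 and 5.99 in early and 8.76, 8.53 and 8.65 in late labels, a difference of 2.86 ± 0.15 (limma adjusted p = 0.0017), beside 1.76 in the step. Chosen after their values were seen, the developmental cofactor LBH (-2.94 ± 0.18, limma adjusted p = 0.0022), the NADPH oxidase subunit CYBA (-3.35 ± 0.23, adjusted p = 0.0030), the tetraspanin TSPAN12 (-2.30 ± 0.17, adjusted p = 0.0038) and SNORD116-15 (-2.45 ± 0.15, adjusted p = 0.0024) also did so. LBH had 10.65 and 10.60, then 8.78 and 8.65 in the step, and CYBA had 8.58 and 8.59, then 6.65 and 6.91. HGF, a growth factor of mesenchyme, fell by 2.27 on the log2 scale in late labels and differed by -0.86 in the step.

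The 2 rows that passed in the opposite direction belonged to PTPRZ1 and FAR2. PTPRZ1, a receptor phosphatase gene, had 7.48 and 7.25 on the earlier and 5.42 and 5.18 on the later arrays, yet rose by 2.91 ± 0.15 between early and late labels (limma adjusted p = 0.0017), from 4.93 to 5.21 on the 3 early to 7.80 to 8.09 on the 3 late arrays. FAR2, a fatty acyl reductase gene, had 9.98 and 9.88, then 7.34 and 7.23, and rose by 2.46 ± 0.29 between early and late labels (limma adjusted p = 0.013). RAB17 and the cardiac actin ACTC1 had positive values too (1.78 and 2.37) but did not pass (adjusted p = 0.19 and 0.26).

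**Figure D5:**
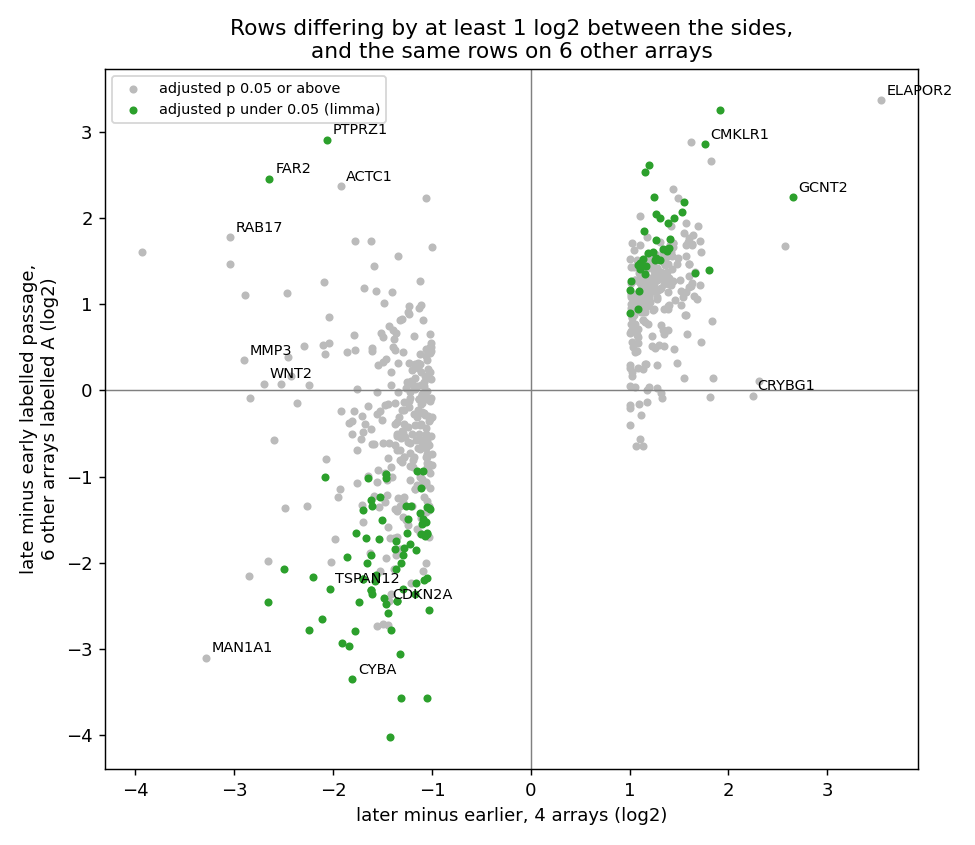
Difference in the step (horizontal axis, later minus earlier, log2) against the difference between late and early labels on 6 other arrays of letter A (vertical axis, log2) for the 667 rows at least 1 log2 apart in the step, with rows past an adjusted p of 0.05 (limma, 6 arrays) in green. Rows higher in the step lie mostly above 0 on the vertical axis (291 of 305), and rows lower in the step spread to both sides (94 of 362 above 0).

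By the labels alone nothing passed. A67 against A50, the labelled groups on either side of passage 58, gave 0 rows at an adjusted p under 0.05 by limma on all 14 arrays, 2052 rows at an unadjusted p under 0.05 and a smallest adjusted p of 0.6366. CDKN2A differed by -2.29 ± 0.61 (adjusted p = 0.64). Each of these groups holds 1 array of the step and 1 array from outside it. The spread of this fit treats the arrays labelled A58, from opposite sides of the step, as duplicates. The step's own difference thus enters the spread. If the labels are displaced, other groups may join unlike arrays too, and this was not tested. A fit on the 4 arrays labelled A50 and A67 alone holds no array labelled A58. It gave 0 rows too, with 3517 at an unadjusted p under 0.05 and a smallest adjusted p of 0.09651 by limma. Both groups there still join 1 array of the step with 1 array from outside it. The 0 rows of either fit therefore cannot decide whether expression differed between A50 and A67.

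Markers of the tissue and of other cells were read on the same arrays. Fibroblast markers were present, with COL1A1 at 13.19 and 13.23, then 12.71 and 12.59, and VIM at 12.85 and 12.88, then 12.97 and 12.94. The summed log2 level of the 11 fibroblast markers was 132.3 to 132.6 on the earlier and 125.8 to 126.9 on the later arrays. THY1 and PDGFRB differed by -0.80 and -0.79 and fell between early and late labels (limma adjusted p = 0.012 and 0.041). Summed levels of epithelial markers were 74.9 to 75.9, then 75.3 to 78.1, endothelial 70.4 to 70.5, then 67.9 to 69.6, blood 64.6 to 66.0, then 62.7 to 64.9, and neural 57.2 to 58.2, then 58.0 to 59.4. The leukocyte gene PTPRC lay between 5.42 and 5.72, EPCAM between 5.31 and 5.85 and PECAM1 between 6.17 and 6.77 on the 4 arrays, overlapping between sides. Other members did not overlap, 4 of 11 epithelial markers higher and 1 lower, 3 of 10 endothelial higher and 3 lower (the lowest at -1.0), 3 of 10 blood higher and 1, HBB, lower, and 5 of 8 neural higher and 0 lower, against 27.9% higher and 28.1% lower of all genes. The table has no detection calls, and no marker was at 0. The part of other cells in the differences was not tested, and fewer cells of a kind and less RNA per cell cannot be told apart on bulk arrays.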

How the data were processed

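RNA was measured on 14 Affymetrix human gene arrays, 1 per sample, per the labels. The deposited table holds log2 values of 28869 rows. Its log base was read from the values, and no source used here gives the background correction or normalization. The arrays had medians from 7.26 to 7.48, and their number limits the precision. Rows were named through the platform annotation and RefSeq, with 1 symbol for 19310 rows (19279 matched by gene ID), several for 1752 and none for 7807. The brightest row stood for each gene.

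The gene lists, the members and the comparisons were chosen with earlier results of these data known. Named genes were 3 markers, the 15 largest differences each way at 1 log2 or more without overlap, up to 6 members of each list each way and a fixed set of further genes whatever their values, and others are said to be chosen after their values were seen. Differences between sides were means of 2 arrays and were not tested. The other comparisons used limma 3.58.1 in R 4.3.3 (lmFit, eBayes) with Benjamini-Hochberg adjustment over all rows at 0.05, two-sided. A67 against A50 used all 14 arrays in 7 groups, and the comparison outside the step used its 6 arrays (4 residual degrees of freedom). The fits were also run on simulated data with independent arrays and fixed groups. Such data cannot show what close neighbours or displaced labels do to the p-values. Alternatives were quantile normalization, median centring, rows above the 30th percentile, an intensity trend with a robust prior, the replicate number as a block, other sets of arrays, 1 row per gene and leaving out each array. 1 gene and the list tied to it are not reported here.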

Additional observations from a re-analysis of the deposited data

How the results depend on the processing

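The 667 rows of the step numbered 637 after quantile normalization, 674 after median centring, 519 without dim rows, 452 with 1 row per gene and 711 to 863 with 1 of the 4 arrays left out. Of the list medians under these settings 24, and of the values of single genes 19, moved by more than the spread between arrays of a side in the same direction, and the number of lists with a median of at least 0.5 either way was 5, or 6 without A58 replicate 2. The direction turned for 6 values near 0. These were CCN1 after quantile normalization (0.023), the p16 and RB list median without A50 replicate 2 or A67 replicate 1 (-0.018 each, up to 0.102 without another array), CDKN2B in the same 2 settings (-0.01 and -0.07, up to 0.21), PTPRC without A58 replicate 1 (0.01, down to -0.21), EPCAM without A58 replicate 2 (0.08, down to -0.44), and PECAM1 without A58 replicate 1 (-0.05) or A67 replicate 1 (-0.29, up to 0.31). Outside the step, the 494 rows became 758 with an intensity trend and robust prior, 681 without dim rows, 153 with the replicate number as a block, and 0 with the spread of all 14 arrays by limma (3804 at an unadjusted p under 0.05). That last spread treats the 2 arrays labelled A58, from opposite sides of the step, as duplicates. It does so with the 2 labelled primary and the 2 labelled B96 too. Leaving out 1 array gave 25 to 2197 rows, 34 without A50 replicate 1, 79 without A95 replicate 1, 104 without A67 replicate 2 and 564 without A39 replicate 1. The cause was not tested. A67 against A50 gave 0 rows in each of its 10 alternatives, the replicate block included (1752 rows at an unadjusted p under 0.05). These alternatives kept the labelled groups, so they cannot decide whether A67 and A50 differed. The labels give the duplicates numbers alone. The deviations of same-numbered arrays of A67 and A50 correlated at 0.196, so the numbers were not taken as pairs. The table gives no detection calls, so small differences of dim rows cannot be judged against background.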

Other observations

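Genes outside the lists that switched with the step among the arrays of letter A included several signalling and transport genes, named after their values were seen and as log2 differences between later and earlier arrays. Lower were the transcription factor SOX4 (-2.20), the iron exporter SLC40A1 (-1.67), the aldehyde dehydrogenase ALDH2 (-1.54), the G protein regulator RGS2 (-1.36), the peptidase DPP4 (-1.21), the bradykinin receptor BDKRB2 (-1.12), the growth factor FGF7 (-1.06) and endothelin-1, EDN1 (-1.04). Pregnancy-specific glycoproteins PSG3 (-1.84), PSG4 (-1.41) and PSG9 (-1.36) were lower too, and their copies are near-identical in sequence. Higher were the organic anion transporter SLCO1B3 (1.62), the testis antigen SSX1 (1.25), the integrin subunit ITGA6 (1.19), the purine phosphorylase PNP (1.14), the meiotic recombinase DMC1 (1.08) and the transcription factor MEF2C (1.02).

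Among the arrays of letter A, genes high on the earlier arrays alone included the small heat shock protein CRYAB (-1.42 from earlier to later), dystrophin, DMD (-1.25), the integrin ligand EDIL3 (-1.24), the potassium channel KCNJ2 (-1.23) and the scavenger receptor MSR1 (-1.12). Genes lower in the step that had A39 replicate 1 on the later side of the midpoint too included 2 inhibitors of growth. They were cyclin G2, CCNG2 (-1.10), and the PI3 kinase inhibitor PIK3IP1 (-1.32). These courses were defined on the same arrays and were not tested.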
